A study of Mus musculus with 6 samples.

Results

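The genes described here are 10 regulators of mitochondrial biogenesis and of the PPAR and ERR nuclear receptors: the coactivators Ppargc1a and Ppargc1b, the receptors Ppara, Ppard, Pparg, Esrra, Esrrb and Esrrg, and the transcription factors Nrf1 and Tfam. They were taken by gene name from the deposited table, which held all 10 among 30914 genes. Hearts of male C57BL/6J mice were sequenced, 3 from the Ang II group and 3 from the Ang II + Tec group, each library being 1 mouse. All were wild type and 8 weeks old at the start, and received angiotensin II at 1 μg/kg/min for 4 weeks by osmotic pump, a model of pathological cardiac hypertrophy, and the Ang II + Tec mice also received the flavonoid tectochrysin (Tec) at 5 mg/kg over the last 2 weeks. Hearts without Ang II were not analysed here, so the values show how the groups differed under Ang II and not how far either lay from a normal heart. Gene coordinates are as deposited, which for most genes are those of the mouse build GRCm38. Levels are FPKM, fragments scaled to the length of the transcript and to the mapped fragments of the library. Values of a group are given in the order of replicates 1, 2 and 3, and treated hearts, or Tec replicates, are those of the Ang II + Tec group.

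The coactivators PGC-1α (Ppargc1a) and PGC-1β (Ppargc1b) do not bind DNA themselves but dock on nuclear receptors. PPARα and the estrogen-related receptors ERRα and ERRγ are the partners best known in cardiac muscle, where they drive genes of fatty acid oxidation and of oxidative phosphorylation. Nuclear respiratory factor 1 (Nrf1) acts on nuclear genes for mitochondrial proteins, among them Tfam, whose product packages mitochondrial DNA and helps to transcribe it.

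Short stretches before the annotated starts of regulators are shown because they hold sequences that such factors are known to bind: the core of an NRF1 site before Ppara and Esrra, and a site for GABP, the ETS factor also called nuclear respiratory factor 2, before Tfam. They come from RefSeq on GRCm38.p6, read 5′ to 3′ on the strand of the gene, with the matched letters in capitals.
Ppara, chr15:85735735-85735764, plus strand: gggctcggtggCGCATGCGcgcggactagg
Esrra, chr19:6921824-6921853, minus strand: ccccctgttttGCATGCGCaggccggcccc
Tfam, chr10:71238073-71238102, minus strand: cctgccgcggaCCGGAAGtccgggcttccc
The first letter in capitals lay 30, 34 and 47 bases before a start annotated in RefSeq, which need not be the outermost start of the gene. By the deposited gene coordinates, the stretches of Ppara and Tfam lie inside the gene and that of Esrra lies partly inside it. Windows of 250 bases before and 50 after a start were searched on both strands, 16 windows for 9 of the regulators and 32851 windows in all. The NRF1 core spelled CGCATGCG was in 1.87% of all windows, and among the regulators in 1, that of Ppara. The overlapping spelling GCGCATGC was in 2.71% of all windows and in those of Ppara and Esrra, where the latter holds its reverse complement. The ETS letters CCGGAAG were in 8.86% of all windows and in that of Tfam. Neither the ERR response element TCAAGGTCA (0.423% of all windows) nor the cAMP response element TGACGTCA (1.79%) was spelled in a window of a regulator. By GENCODE M21 the stretch of Tfam overlaps an exon of a Tfam transcript, and the other two overlap no exon. A match is a description of letters and not evidence of binding.

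None of the 10 regulators passed the test between the groups after adjustment for the genes tested. On the scale of log2(FPKM + 1), 7 were lower and 3 higher with Tec as deposited, whereas under median-of-ratios scaling, which divides each library by a size factor, Esrra alone was below 0. As deposited the fold changes ran from -0.32 for Esrra to 0.23 for Ppargc1a. The lowest adjusted p-value was 0.237, for Esrra (limma with Benjamini-Hochberg adjustment over 13089 genes). Of all genes tested, 0.183% had an adjusted p-value under 0.05. Without Ang II replicate 3 that share was 28.8%, and with library weights 27.1%, while 0 of the 10 regulators reached the limit in either fit (limma). An unadjusted p-value under 0.05 was reached by 1 of the 10 regulators, Esrra, which was lower with Tec, where 16.5% of all tested genes were lower at that limit. The median fold change was -0.089 over the regulators and -0.17 over all tested genes, 80.0% of which were lower with Tec. That scaling moved the median of all genes to 0.0020, so the sign of a small fold change here depended on the scaling.

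The libraries of a group differed in transcripts typical of other tissues. Transcripts typical of atrial muscle stood high in Ang II replicates 1 and 2 and in Tec replicate 2, and the 7 atrial markers summed to 260 to 10327 FPKM in the Ang II group and to 136 to 5128 FPKM in the Ang II + Tec group. Most of each sum was Nppa, at 5568, 9456 and 256 FPKM under Ang II alone and at 906, 3489 and 125 FPKM in treated hearts. The paper measured its transcript (Anp) as a gene of cardiac hypertrophy, so the sum is not a measure of atrial tissue alone. The atrial myosin light chain gene Myl7 was at 419, 332 and 0 FPKM under Ang II alone and at 0, 1040 and 1.58 FPKM in treated hearts. Of the 9 white adipocyte markers 8 were highest in Tec replicate 2, and of the 7 brown adipocyte markers 2, Ucp1 and Cidea. In that library Ucp1, the uncoupling protein of brown fat, was at 18.3 FPKM against 0.620 in Ang II replicate 2 and 0 in the other 4 libraries. Adiponectin (Adipoq) was at 16.2 FPKM in that library and at 5.16 or below in the others. The library protocol in the labels speaks of an adipose type, whereas the tissue is labelled heart. The 10 markers of ventricular cardiomyocytes summed to between 9198 and 11343 FPKM in the Ang II group and between 9711 and 10885 FPKM in the Ang II + Tec group. In bulk tissue, fewer cells of a type and less RNA per cell cannot be told apart.

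The levels of the regulators spanned more than an order of magnitude and kept nearly the same order in every heart. Esrra stood highest, with a mean of 28.2 FPKM over the 6 libraries, higher than 91.7% of the tested genes. It was followed by Ppargc1a at 12.1, Tfam at 9.08, Esrrg at 4.06, Pparg at 3.54, Ppara at 3.10, Esrrb at 2.78, Ppard at 2.02, Ppargc1b at 1.35 and Nrf1 at 1.02 FPKM. Each of these neighbours kept its order in 6 of 6 libraries, except that Pparg exceeded Ppara in 4 and Ppara exceeded Esrrb in 3. Thus ERRα, and not ERRγ or ERRβ, was the leading receptor transcript per length, and Ppargc1a exceeded Ppargc1b by between 6.83-fold and 14.3-fold within a library. The plot of levels by library shows each value with the mean of its group.

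**Figure D1:**
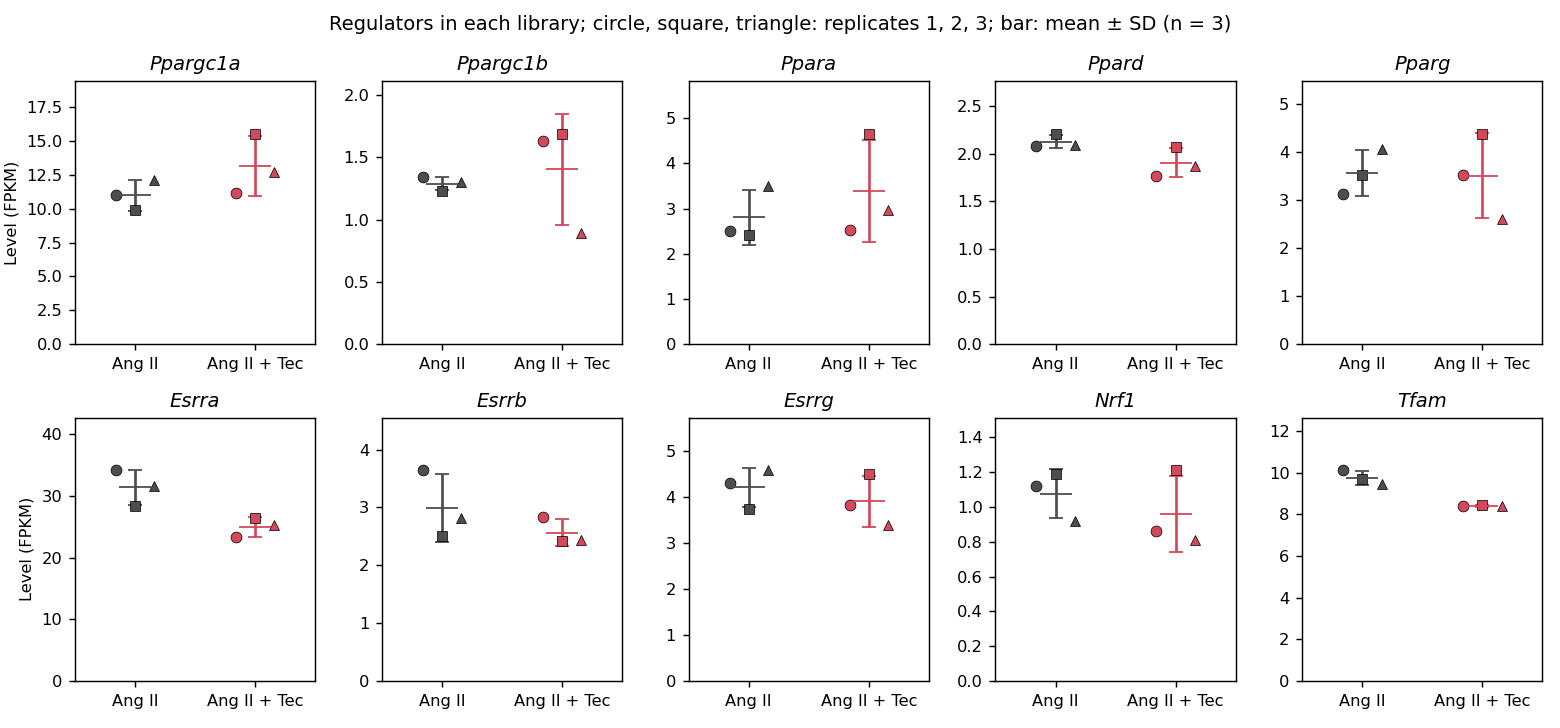
Level of each regulator (FPKM, linear axis from 0) in the 3 Ang II and 3 Ang II + Tec libraries; symbols are replicates and bars the mean ± SD. As deposited, though not under median-of-ratios scaling, Esrra and Tfam lay lower in all 3 Ang II + Tec libraries, at 26.4 and 8.47 FPKM or below, whereas Ppargc1a, Ppara and Pparg each peaked in Tec replicate 2.

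Of the coactivators, Ppargc1a (ENSMUSG00000029167, chromosome 5 from 51454250 to 51567704, minus strand) encodes PGC-1α, which is induced by cold, fasting and exercise. Its level was 11.0, 9.87 and 12.1 FPKM under Ang II alone and 11.1, 15.5 and 12.7 FPKM in treated hearts, so the groups overlapped and the highest value was that of Tec replicate 2, the library in which most white adipocyte markers peaked. The means were 11.0 ± 1.14 and 13.1 ± 2.22 FPKM (SD, n = 3), a log2 fold change of 0.23 (standard error, SE, 0.15, 95% confidence interval -0.12 to 0.58, limma adjusted p-value 0.393). Without Tec replicate 2 the fold change was 0.11. Without the 3 libraries that held atrial transcripts it was -0.026, a comparison of 1 heart with 2.

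The related coactivator Ppargc1b (ENSMUSG00000033871, chromosome 18 from 61298136 to 61400431, minus strand) was at 1.34, 1.23 and 1.3 FPKM under Ang II alone and at 1.63, 1.69 and 0.890 FPKM in treated hearts. The treated hearts held both the highest values and the lowest one. The spread thus differed, with an SD of 0.0557 FPKM in the Ang II group and 0.446 FPKM in the Ang II + Tec group, around means of 1.29 and 1.40 FPKM (n = 3 each). Its log2 fold change was 0.052 (SE 0.15, limma adjusted p-value 0.851), and it was -0.022 without Tec replicate 1 and 0.22 without Tec replicate 3.

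Among the PPAR receptors, which bind fatty acids and their derivatives, Ppara (ENSMUSG00000022383, chromosome 15 from 85734983 to 85802819, plus strand) encodes the isoform of oxidative tissues. It was at 2.51, 2.41 and 3.50 FPKM under Ang II alone and at 2.53, 4.66 and 2.96 FPKM in treated hearts. One treated heart stood above all others and the remaining values overlapped. The log2 fold change was 0.18 (SE 0.20, 95% confidence interval -0.29 to 0.66, limma adjusted p-value 0.594), -0.014 without Tec replicate 2 and -0.27 without the 3 libraries that held atrial transcripts. Ppara varied most among the regulators, with a coefficient of variation of 28.0% over the 6 hearts.

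Pparg (ENSMUSG00000000440, chromosome 6 from 115360951 to 115490399, plus strand) encodes the receptor that drives fat cell differentiation. Its level was 3.12, 3.51 and 4.07 FPKM in the Ang II group and 3.53, 4.38 and 2.61 FPKM in the Ang II + Tec group. Both the lowest and the highest heart were treated ones. The log2 fold change was -0.033 (SE 0.17, limma adjusted p-value 0.916), with a value of 0.045 without Ang II replicate 3 and 0.12 without Tec replicate 3.

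Ppard (ENSMUSG00000002250, chromosome 17 from 28232700 to 28301474, plus strand), the most broadly expressed of the PPAR genes, was at 2.08, 2.21 and 2.09 FPKM under Ang II alone and at 1.77, 2.07 and 1.87 FPKM in treated hearts. The groups did not overlap, but the highest treated heart lay only just under the lowest Ang II heart. The log2 fold change was -0.11 (SE 0.10, limma adjusted p-value 0.541), and 0.048 under median-of-ratios scaling.

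Esrra (ENSMUSG00000024955, chromosome 19 from 6910977 to 6921840, minus strand) encodes ERRα, an orphan receptor that works with PGC-1α on genes of oxidative metabolism, and its window holds the NRF1 core shown above. Its level was 34.1, 28.4 and 31.6 FPKM under Ang II alone and 23.3, 26.4 and 25.2 FPKM in treated hearts. Every treated heart lay below every Ang II heart. The means were 31.4 ± 2.87 and 25.0 ± 1.56 FPKM (SD, n = 3), a ratio of 0.795, and the log2 fold change was -0.32 (SE 0.12, 95% confidence interval -0.59 to -0.044, unadjusted p-value 0.0283, limma adjusted p-value 0.237). It remained below 0 when any 1 library was left out, from -0.38 to -0.26, and was -0.37 without the 3 libraries that held atrial transcripts. Under median-of-ratios scaling it was -0.089 and the groups overlapped. On GENCODE M21, 164 exon bases of Esrra (3.74%) lie opposite exons of Trmt112, which was at 12.7, 13.6 and 8.77 FPKM under Ang II alone and at 8.24, 11.5 and 9.01 FPKM in treated hearts. Whether the libraries kept the strand is not given in the sources used here, and the part of Trmt112 reads in the value of Esrra was not tested.

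Esrrg (ENSMUSG00000026610, chromosome 1 from 187608791 to 188214885, plus strand) encodes ERRγ, which takes part in the switch of the newborn heart to oxidative metabolism. It was at 4.30, 3.75 and 4.58 FPKM under Ang II alone and at 3.82, 4.5 and 3.39 FPKM in treated hearts. The groups overlapped widely, with a log2 fold change of -0.090 (SE 0.13, limma adjusted p-value 0.685). Esrrb (ENSMUSG00000021255, chromosome 12 from 86361117 to 86521628, plus strand), known chiefly for its role in placenta and embryonic stem cells, was at 3.64, 2.51 and 2.82 FPKM under Ang II alone and at 2.83, 2.42 and 2.44 FPKM in treated hearts. One Ang II heart stood above the rest, and the log2 fold change of -0.16 (SE 0.14, limma adjusted p-value 0.513) was -0.041 without that heart, Ang II replicate 1. Under median-of-ratios scaling both genes were above 0, at 0.095 and 0.018.

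Of the 2 factors that act on the mitochondrial genome or on nuclear genes for mitochondria, Nrf1 (ENSMUSG00000058440, chromosome 6 from 30047988 to 30153458, plus strand) was the lowest of all the regulators. Its level was 1.12, 1.19 and 0.920 FPKM under Ang II alone and 0.860, 1.21 and 0.810 FPKM in treated hearts. The groups overlapped, and the log2 fold change was -0.087 (SE 0.12, limma adjusted p-value 0.671) and 0.030 under median-of-ratios scaling.

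Tfam (ENSMUSG00000003923, chromosome 10 from 71225464 to 71238280, minus strand) was at 10.1, 9.71 and 9.44 FPKM under Ang II alone and at 8.39, 8.47 and 8.38 FPKM in treated hearts. The groups did not overlap, and the SD of the treated hearts was 0.0493 FPKM (n = 3) against 0.337 FPKM under Ang II alone. The means were 9.75 and 8.41 FPKM, a log2 fold change of -0.19 (SE 0.099, 95% confidence interval -0.42 to 0.040, limma adjusted p-value 0.318). It ranged from -0.21 to -0.17 when 1 library was left out, whereas under median-of-ratios scaling it was 0.021. The 13 messenger RNAs of the mitochondrial genome, which the Tfam protein helps to transcribe, summed to 201035, 196182 and 268269 FPKM under Ang II alone and to 287396, 261251 and 298731 FPKM in treated hearts. Their groups overlapped, and as deposited the 2 libraries with the lowest sums had the 2 highest Tfam levels. Those libraries, Ang II replicates 1 and 2, also had the largest size factors in median-of-ratios scaling (1.15 and 1.18). The order of the Tfam levels thus depended on the scaling.

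Taking the regulators as a group, 3 of 10 had no overlap between the groups and were lower with Tec (Esrra, Tfam and Ppard), where 18.9% of all tested genes did so. None of the 10 had no overlap and was higher with Tec, against 2.90% of all tested genes. Under median-of-ratios scaling, 0 of 10 were without overlap in either direction, against 10.8% of all tested genes lower and 10.9% higher. The plot of fold changes shows how the values moved with the scaling.

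**Figure D2:**
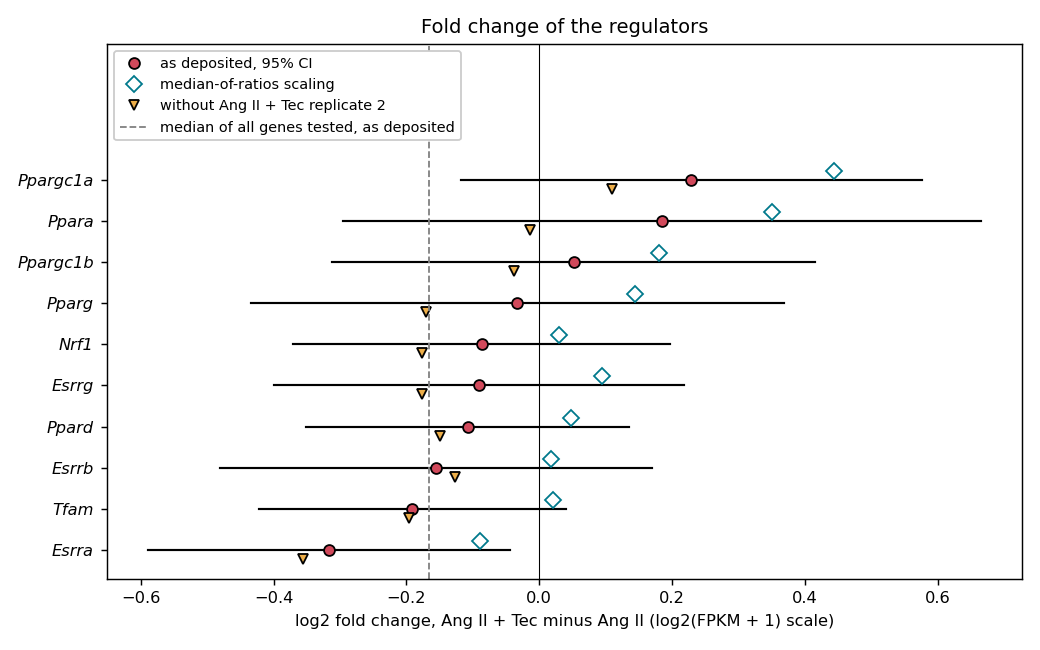
Log2 fold change of each regulator (Ang II + Tec minus Ang II, log2(FPKM + 1) scale) as deposited with its 95% confidence interval (circles), after median-of-ratios scaling (diamonds) and without Tec replicate 2 (triangles). The dashed line is the median of all genes tested (-0.17), and the intervals of all regulators but Esrra span 0.

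The regulators with their highest value in Tec replicate 2 were 5 of 10 (Ppargc1a, Ppargc1b, Ppara, Pparg and Nrf1), where 17.9% of all tested genes were highest in that library. It was also a library with atrial transcripts and the one in which most white adipocyte markers peaked. The 9 white adipocyte markers summed to between 104.9 and 135.9 FPKM in the Ang II group and to between 86.8 and 219 FPKM in the Ang II + Tec group, the highest being that library. Fabp4, at 76.4 to 108.1 FPKM, was highest in Ang II replicate 3 and stood at 99.2 FPKM in Tec replicate 2, where Cfd (56.2 FPKM), Cidec (22.1 FPKM) and Adipoq followed. Among the defining genes leptin (Lep) was at 1.15 FPKM in Tec replicate 2 and at 0.130 FPKM or below elsewhere. The 7 brown adipocyte markers summed to between 333 and 479 FPKM in the Ang II group and to between 364 and 429 FPKM in the Ang II + Tec group, mostly Cox8b, which the heart also expresses. This sum was lowest among treated hearts in Tec replicate 2 (364 FPKM) and highest of all in Ang II replicate 3, and Dio2, Prdm16 and Cox8b each peaked in a heart of the Ang II group. Of the defining brown fat genes, Zic1 was at 0 in all 6 libraries, and Elovl3 was at 0 in 5 libraries and at 0.030 FPKM in Ang II replicate 1. The part of fat or atrial tissue in the values of the regulators was not tested, and without that library the fold changes of Ppargc1b and Ppara were -0.038 and -0.014.

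**Figure D3:**
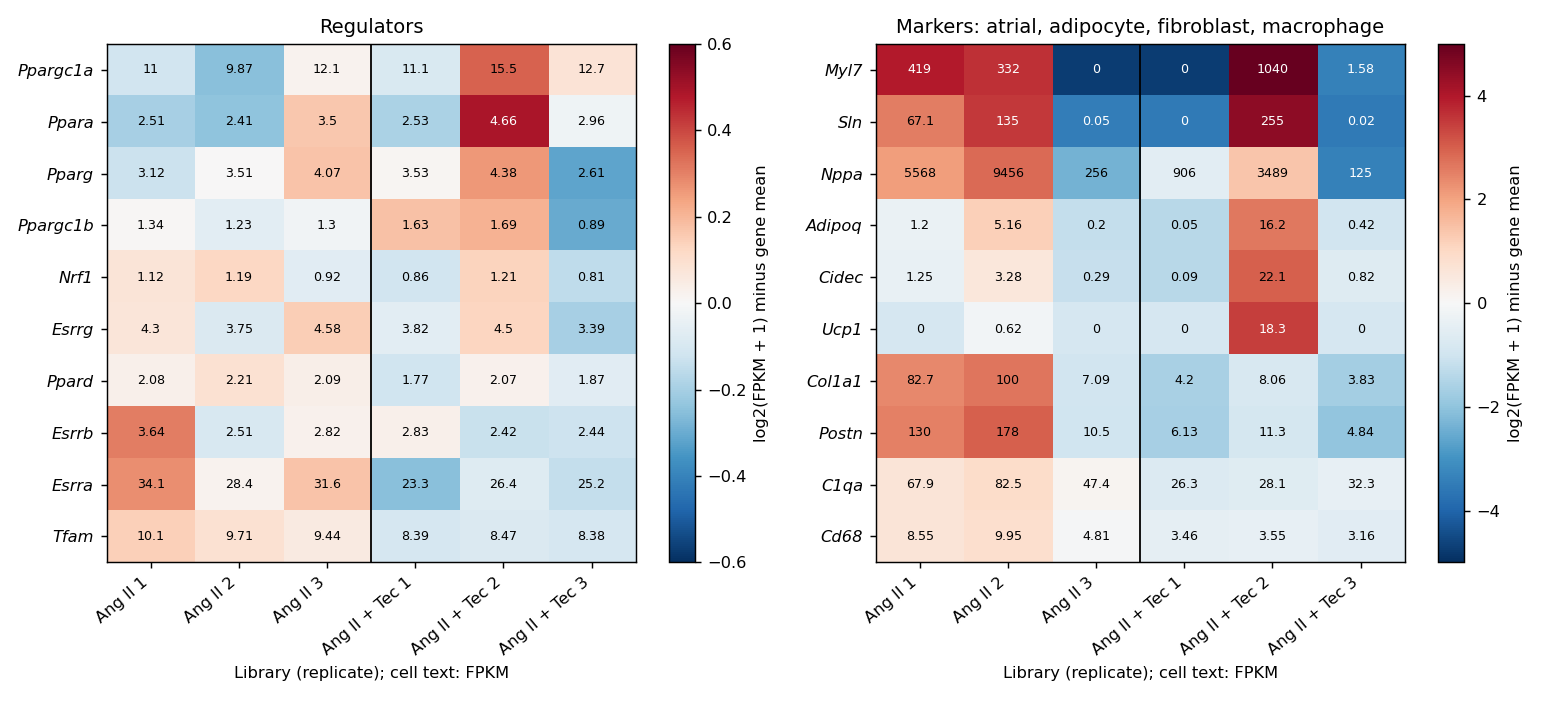
Each cell gives the FPKM of a gene in a library, coloured by log2(FPKM + 1) minus the mean of the gene over the 6 libraries; the 2 panels have different colour ranges. Ppargc1a, Ppara and Pparg reached 15.5, 4.66 and 4.38 FPKM in Tec replicate 2, the library with Ucp1 at 18.3 and Adipoq at 16.2 FPKM, while fibroblast and macrophage markers were highest in Ang II replicates 1 and 2.

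Markers of other cells also differed between the groups. All 8 macrophage markers were lower with Tec at an unadjusted p-value under 0.05 and 0 at an adjusted one (limma). As deposited, 16.5% of all tested genes were lower at the unadjusted limit and 80.0% were lower at any p-value. The macrophage markers summed to 120.1 to 217 FPKM in the Ang II group and to 68.9 to 83.8 FPKM in the Ang II + Tec group. The 8 fibroblast markers summed to 172 to 1029 FPKM in the Ang II group and to 141 to 233 FPKM in the Ang II + Tec group. In the Ang II group both sums were lowest in replicate 3, which on these markers lay nearest to the treated hearts. The same held over all tested genes, on the first principal component, the axis of largest variation (68.7% of the variance). There Ang II replicates 1, 2 and 3 lay at -31.2, -46.0 and 19.2, and the treated hearts at 28.6, 2.39 and 27.0. The 7 endothelial markers, at 86.4 to 94.1 FPKM and 78.0 to 85.5 FPKM, differed less in proportion. The 5 red blood cell markers summed to 248 to 1018 FPKM and 147 to 526 FPKM, and the fast skeletal muscle markers, 9 of 10 in the table, to 1.64 to 51.8 FPKM and 15.9 to 19.6 FPKM. The highest of these sums, in Ang II replicate 2, held Tnnt3, a fast troponin T gene, at 42.4 FPKM. Among the marker lists 2 genes passed the adjusted test, where 0.183% of all tested genes did so. Both were of the fast skeletal muscle list and both were higher with Tec. Atp2a1, a calcium pump of fast muscle, was at 0.10, 0.070 and 0.070 FPKM under Ang II alone and at 6.30, 7.51 and 7.46 FPKM in treated hearts (log2 fold change 2.90, SE 0.11, limma adjusted p-value 0.000251). Mylpf, a fast myosin light chain gene, was at 0.580, 0.560 and 0.220 FPKM and at 4.14, 3.44 and 4.55 FPKM (1.80, SE 0.15, limma adjusted p-value 0.0142). The values of both genes did not overlap between the groups. Of the 5 tested genes of the fast skeletal muscle list, 4 were higher with Tec and 1, Tnnt3, was lower (log2 fold change -1.77). Actn3 had a mean of 0.0733 FPKM in each group, and Myh1 and Myh2 had means of 0.01 FPKM or below. The part of all these cell types in the values of the regulators was not tested.

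The ratio of a pair of genes within a library does not change when all genes of the library are divided by 1 factor. Of 8 ratios examined, 3 were chosen after the values were seen. Ppargc1a stood at 0.321, 0.347 and 0.384 times the level of Esrra under Ang II alone and at 0.478, 0.588 and 0.505 times in treated hearts. Every treated heart lay above every Ang II heart, with a difference in the mean log2 ratio of 0.58 (-1.51 ± 0.13 against -0.94 ± 0.16, SD, n = 3). The exact two-sided permutation test gave p = 0.1, the smallest value that 3 hearts against 3 allow, and 0.4 after Benjamini-Hochberg adjustment over the 8 ratios. Of all tested genes above 0 in every library, 17.1% had a ratio to Esrra that was likewise higher without overlap. The difference was 0.49 without Tec replicate 2 and 0.35 without the 3 libraries that held atrial transcripts.

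The ratio of Ppargc1a to Tfam, also chosen after the values were seen, was 1.09, 1.02 and 1.29 under Ang II alone and 1.33, 1.83 and 1.52 in treated hearts. It did not overlap either, with a log2 difference of 0.46 (exact permutation p = 0.1, adjusted p = 0.4). The difference was 0.34 without Tec replicate 2 and 0.14 without the 3 libraries that held atrial transcripts. The share of all tested genes with such a ratio to Tfam was not computed. Both separated ratios have Ppargc1a on top, and Esrra and Tfam as deposited were themselves lower without overlap. The ratio of Esrra to Tfam overlapped between the groups (log2 difference -0.12, exact permutation p = 0.3).

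The other 5 ratios all overlapped. Ppara stood at 0.804, 0.687 and 0.860 times the level of Pparg under Ang II alone and at 0.717, 1.06 and 1.13 times in treated hearts, so that Ppara exceeded Pparg in 2 treated hearts and in no Ang II heart (log2 difference 0.29, exact permutation p = 0.3). Esrra stood between 6.90 and 7.94 times above Esrrg in the Ang II group and between 5.87 and 7.44 times in the Ang II + Tec group (log2 difference -0.21, exact permutation p = 0.2). The log2 differences of Ppargc1a to Ppargc1b, Esrrg to Esrrb and Tfam to Nrf1 were 0.18, 0.094 and -0.032, with exact permutation p-values of 0.8, 0.7 and 0.9, and each changed sign when some single library was left out.

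**Figure D4:**
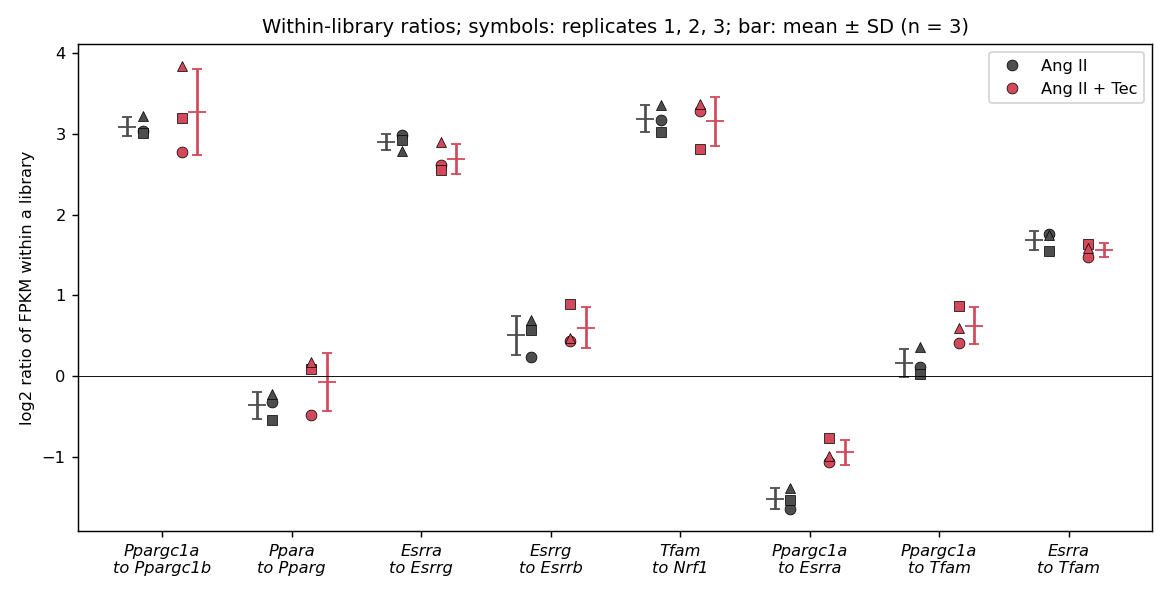
Log2 ratio of the FPKM of 2 regulators within each library, for the 3 Ang II and 3 Ang II + Tec libraries, with the mean ± SD beside the points. The ratios of Ppargc1a to Esrra and to Tfam, both chosen after the values were seen, are the 2 of 8 in which the groups did not overlap. Their mean log2 ratios were -1.51 and -0.94, and 0.17 and 0.63.

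Genes that these factors are known to control or to work with were read from 4 lists. The 30 targets of PPARα, mostly enzymes of fatty acid oxidation, had a median log2 fold change of 0.13 against -0.17 for all tested genes, and 26 of the 30 were higher and 4 lower with Tec. In no list did a gene reach an adjusted p-value under 0.05 in the main fit, which held all 6 libraries without weights. Without Ang II replicate 3, where 28.8% of all tested genes did so, the counts were 9 PPARα targets, 4 ERR targets, 3 genes of mitochondrial DNA and 1 coregulator, and with library weights 8, 1, 3 and 1 (limma). The fatty acid transporter Cd36 was at 196, 188 and 271 FPKM under Ang II alone and at 267, 290.1 and 280.2 FPKM in treated hearts (log2 fold change 0.37, SE 0.16, limma adjusted p-value 0.271). The trifunctional protein subunit Hadha was at 56.0, 44.2 and 76.9 FPKM and at 73.8, 78.5 and 80.0 FPKM (0.42, SE 0.20). The groups overlapped for both, since Ang II replicate 3 lay within the treated range. Leaving out Ang II replicate 2 brought the median of the list to -0.014 and leaving out replicate 3 of that group to 0.29. It was -0.16 without the 3 libraries that held atrial transcripts.

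The 26 targets of the ERR receptors had a median of 0.089, with 17 higher and 9 lower, and the median was 0.0064 when Ang II replicate 2 was left out and 0.16 when replicate 3 was. Cycs, which encodes cytochrome c, was at 212, 210.3 and 204 FPKM under Ang II alone and at 182, 172 and 184 FPKM in treated hearts. As deposited it was lower without overlap (log2 fold change -0.22, SE 0.10, limma adjusted p-value 0.291). Idh3a, a subunit of isocitrate dehydrogenase, was also lower without overlap, at 112 ± 9.09 and 95.2 ± 4.29 FPKM (SD, n = 3). Etfa, the electron transfer flavoprotein subunit, was higher without overlap, at 146, 133 and 183 FPKM and at 186, 187 and 188 FPKM. The named targets of the ERR receptors, which are the 3 with the lowest p-values, thus lay on both sides as deposited. Under median-of-ratios scaling the median of the list was 0.32, and values of these single targets are not given for that scaling. As deposited, 18.9% of all tested genes were lower without overlap and 2.90% higher.

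Among 28 tested genes of mitochondrial DNA transcription and maintenance the median was -0.088, with 9 higher and 19 lower. At an unadjusted p-value under 0.05, 2 were higher and 2 lower, where 2.09% of all tested genes were higher and 16.5% lower at that limit. Lrpprc, which stabilizes mitochondrial messenger RNAs, was at 8.39, 7.14 and 9.17 FPKM under Ang II alone and at 12.0, 11.4 and 9.76 FPKM in treated hearts (log2 fold change 0.39, SE 0.13, limma adjusted p-value 0.230). Its binding partner Slirp was at 4.53, 6.39 and 5.62 FPKM and at 4.44, 3.25 and 3.71 FPKM (-0.44, SE 0.15). As deposited the partners thus stood in opposite directions, each without overlap. For Slirp the highest treated heart lay only just under the lowest Ang II heart. Tfb2m, the transcription factor that works beside Tfam at mitochondrial promoters, was at 14.0, 12.1 and 15.3 FPKM and at 17.2, 17.6 and 17.6 FPKM. It was higher without overlap (0.33, SE 0.12), where Tfam as deposited was lower. These genes were named for their low p-values, and of all tested genes 18.9% were lower and 2.90% higher without overlap.

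Of 31 tested partners and coregulators of the receptors, 9 were higher and 22 lower, with a median of -0.078. Rxrb, one of the retinoid X receptors that pair with PPARs, was at 12.6, 10.3 and 10.9 FPKM under Ang II alone and at 8.14, 9.28 and 8.33 FPKM in treated hearts (log2 fold change -0.35, SE 0.12, limma adjusted p-value 0.229). The mitochondrial deacetylase gene Sirt3 was at 5.81 ± 0.627 and 4.35 ± 0.340 FPKM (SD, n = 3). As deposited, neither gene overlapped between the groups. Mef2c, a cardiac transcription factor, was at 3.55 ± 0.709 and 2.42 ± 0.330 FPKM (SD, n = 3), with overlap. As deposited, 18.9% of all tested genes were lower without overlap. Under median-of-ratios scaling the medians of the 4 lists were 0.36 for the PPARα targets, 0.32 for the ERR targets, 0.062 for mitochondrial DNA and 0.093 for the coregulators, beside 0.0020 for all genes. Whether single genes of the lists overlapped under that scaling is not given here.

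**Figure D5:**
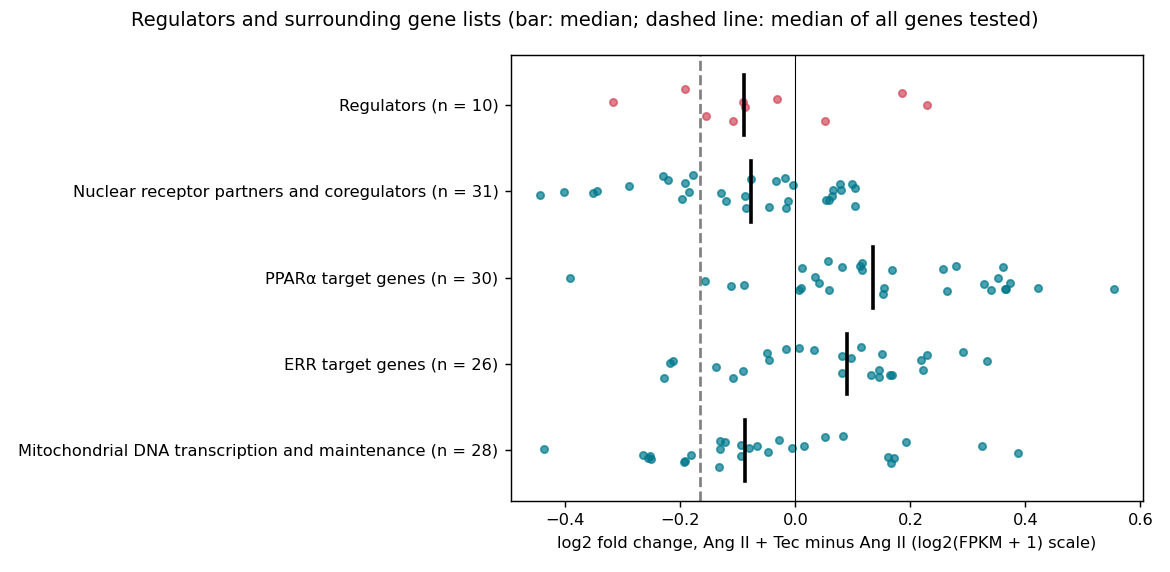
Log2 fold change (Ang II + Tec minus Ang II, log2(FPKM + 1) scale) of the 10 regulators and of the tested genes of 4 lists, each point a gene, with the median as a bar and the median of all genes tested as a dashed line. The medians of the PPARα and ERR target lists (0.13 and 0.089) lie above 0, and those of the other lists and of the regulators between 0 and the dashed line at -0.17.

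The tested genes that followed Ppargc1a most closely over the 6 libraries, by the root mean square difference of centred log2(FPKM + 1) values, were Dsg2 (0.027), Glul (0.029) and Usp54 (0.034), against a standard deviation of 0.21 for Ppargc1a itself. Dsg2, a desmosomal cadherin of the intercalated disc, was at 6.26, 5.48 and 6.94 FPKM under Ang II alone and at 6.38, 8.50 and 7.21 FPKM in treated hearts, with the same order of libraries as Ppargc1a. Glul, the glutamine synthetase gene, was at 74.7, 66.2 and 80.2 FPKM and at 77.3, 99.6 and 82.7 FPKM. Nearest to Ppara were Mme (0.054), Xk (0.066) and 4930481A15Rik (0.075), each highest in Tec replicate 2, at 1.12, 1.76 and 6.03 FPKM. Nearest to Pparg were the gene models Gm4535 (0.062), Gm29107 (0.072) and Gm5801 (0.078). With 6 libraries and 13089 genes, such likeness is a description of these hearts.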

How the data were processed

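RNA from 6 mouse hearts was sequenced as poly(A) libraries, and the authors deposited 1 table of FPKM per gene and library, to 2 decimals. Reads had been trimmed with Cutadapt and checked with FastQC. The submitters' processing notes name Bowtie 0.12.2, HISAT2 2.0, StringTie 1.3.0 and the build mm8. The coordinates in the table equal those of GENCODE M21 on GRCm38 for 27947 of 30832 shared genes (90.6%), among them 8 of the 10 regulators but not Ppargc1a and Esrra, and are printed as deposited. FPKM hold no read totals. The smallest values of short genes gave relative depths of 0.898 to 1.18, so errors are the spread between mice and no counting interval could be computed.

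Genes with at least 0.5 FPKM in at least 3 libraries (13089, all 10 regulators among them) were fitted as log2(FPKM + 1) with limma 3.58.1 in R 4.3.3 (lmFit, eBayes with trend), two-sided, with Benjamini-Hochberg adjustment and no covariate. This scale understates the change of low genes. Differential expression over all genes required a 2-fold change or more (1 on the log2 scale) besides an adjusted p-value under 0.05. Without 1 library the same 13089 genes were fitted. The fit was also run on simulated data with independent noise for each gene. These held no differences shared by a whole library, so that run cannot speak to such differences here. Ratios were tested by exact permutation (Python 3.11.15), and no test was made of a list. Alternatives changed the pseudocount, filter, scaling, block, variance trend, library weights and libraries. Regulators and lists were chosen with earlier results of these data known. Genes named are the regulators, in each list the 3 with the lowest p-value (or any with an adjusted p-value under 0.05), markers of the lists reported, and the 3 genes nearest to Ppargc1a, Ppara and Pparg. Trmt112 was named after its values were seen. One gene that this rule selects is not reported here.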

Additional observations from a re-analysis of the deposited data

How the results depend on the processing

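No regulator had an adjusted p-value under 0.05 in any of 17 alternatives (limma), the lowest being 0.0869 for Esrra without Ang II replicate 3. Esrra was below 0 in all 17. Median-of-ratios scaling and quantile normalization turned 6 regulators from below to above 0: Ppard (0.048 and 0.071), Pparg (0.14 and 0.17), Esrrb (0.018 and 0.038), Esrrg (0.095 and 0.12), Nrf1 (0.030 and 0.065) and Tfam (0.021 and 0.017). The medians moved to 0.093 and 0.13 for the coregulators, 0.32 and 0.30 for the ERR targets and 0.062 and 0.085 for mitochondrial DNA genes. No regulator then had separate groups under median-of-ratios scaling (0 against 3). Library weights, whose estimate stopped before it converged, gave -0.14 for Ppargc1b and -0.15 for the median of mitochondrial DNA genes.

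Without the 3 libraries with atrial transcripts, an alternative chosen after seeing the data, the values were -0.026 for Ppargc1a, -0.045 for Ppargc1b, -0.27 for Ppara, -0.16, -0.092 and -0.020 for the medians of PPARα targets, ERR targets and mitochondrial DNA genes, and -0.25 for the log2 ratio of Esrrg to Esrrb. When 1 library was left out, the range was -0.038 to 0.22 for Ppargc1b, -0.014 to 0.33 for Ppara, -0.17 to 0.12 for Pparg and -0.14 to -0.018 for the coregulators. For the ratios it was -0.10 to 0.43 (Ppargc1a to Ppargc1b), -0.053 to 0.19 (Esrrg to Esrrb) and -0.14 to 0.14 (Tfam to Nrf1).

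Over all genes, 21 were differentially expressed, with 3 under no filter, 522 with library weights, 0 without the atrial libraries (limma, 1112 at an unadjusted p-value under 0.05) and 2 to 557 without 1 library. Same-numbered libraries correlated in their deviations at -0.039, 0.43 and 0.38, and differently numbered ones at -0.44 to 0.23. These values do not settle whether the numbers pair the mice, and the main fit did not pair them. With a replicate block 22 genes were differentially expressed, 0 of them regulators, and the fold change of Esrra was -0.32 (adjusted p-value 0.212). The causes were not tested.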
